A study of Mus musculus with 12 samples.

Results

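Integrins are the receptors by which cells hold the extracellular matrix, each made of an alpha and a beta subunit, and focal adhesion proteins are the intracellular adaptors, kinases and actin-binding proteins that gather on their tails. The genes described here are all those of the expression table whose symbol begins with Itga or Itgb, with 15 named focal adhesion genes (*Tln1*, *Tln2*, *Vcl*, *Pxn*, *Ptk2*, *Ilk*, *Parva*, *Lims1*, *Lims2*, *Fermt2*, *Zyx*, *Tns1*, *Tns3*, *Bcar1* and *Src*). They number 43 of the 15671 genes in the table and comprise 16 alpha subunits, 8 beta subunits, 4 genes named after a beta subunit (*Itgb1bp1*, *Itgb1bp2*, *Itgb3bp* and *Itgbl1*) and the 15 focal adhesion genes. The mean of both group means was at least 1 FPKM (fragment counts scaled to transcript length and to library size) for 32 of them and for 12123 genes in all.

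Expression was measured by RNA-seq in GFP+ cells sorted from E15.5 forelimbs of 3 Scx-/- embryos and 3 control littermates, all from crosses of Scx+/-; Scx-GFP parents. The mutant allele carries a LacZ reporter cassette in place of the *Scx* coding sequence, and the Scx-GFP transgene, which marks tendon cells and their progenitors, was carried by the embryos of both groups. The paper calls the controls wildtype in its introduction and control littermates elsewhere, and describes sorting cells of wildtype, Scx+/- and Scx-/- embryos. No source used here gives the genotype of each control embryo. Scx binding was measured by ChIP-seq with an anti-FLAG antibody in 3 ChIP and 3 input samples of E13.5 Scx Flag/Flag forelimbs, each from 10 pooled pairs, in which the endogenous protein carries a FLAG tag. The authors' mean FPKM of each RNA-seq group and their peak positions were used. Values of single samples were not analysed here, so no expression value below has an SD or an n, no difference was tested against the spread between embryos, and the read depth is unknown.

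In tendon, integrins couple a matrix that is mostly collagen to the actin cytoskeleton of cells that bear load from contracting muscle. Talin and kindlin bind the beta tail and switch the receptor on, vinculin strengthens the link to actin, and the complex of Ilk, Pinch and parvin joins the tail to actin by another route. Focal adhesion kinase, Src, paxillin and Bcar1 signal from the adhesion, and zyxin and the tensins take part in its growth into stress-fibre-linked and fibrillar adhesions. Scx is a basic helix-loop-helix transcription factor, a class that binds DNA at E-boxes of the form CANNTG.

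Some peaks at these genes carry the findings on sequence and are shown first. Each is an interval of the peak table, read from the plus strand of GRCm38.p6 (mm10), in lower case. Capitals mark the core motifs, which are CAGATG with its reverse complement CATCTG and the palindromes CAGCTG and CATATG, and also the Nfat motif, which is TGGAAA with its reverse complement TTTCCA. The peaks at *Itga5* and *Itgb1* lie within 5 kb of a start site and show one with and one without capitals. Those of *Tns3* and *Itga2* lie in introns, *Tns3* being the gene with the most peaks and *Itga2* the integrin subunit gene of at least 1 FPKM with the lowest ratio.
Itga5, 105 bases upstream of the start site, chr15:103366768-103366967: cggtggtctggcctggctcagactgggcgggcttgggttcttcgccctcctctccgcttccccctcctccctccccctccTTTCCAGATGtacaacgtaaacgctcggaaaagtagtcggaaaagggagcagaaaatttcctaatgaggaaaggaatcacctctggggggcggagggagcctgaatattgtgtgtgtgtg
Itga5, 4634 bases upstream, chr15:103371297-103371496: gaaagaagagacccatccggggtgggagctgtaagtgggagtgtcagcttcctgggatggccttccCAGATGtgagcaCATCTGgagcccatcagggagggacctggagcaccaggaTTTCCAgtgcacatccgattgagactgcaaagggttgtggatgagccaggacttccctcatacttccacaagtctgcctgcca
Itgb1, 564 bases downstream, chr8:128686118-128686317: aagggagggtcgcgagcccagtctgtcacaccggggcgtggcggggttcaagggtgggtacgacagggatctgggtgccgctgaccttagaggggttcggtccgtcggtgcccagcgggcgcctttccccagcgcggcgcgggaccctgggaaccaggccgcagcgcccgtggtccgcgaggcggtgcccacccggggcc
Tns3, 1819 bases downstream, chr11:8662616-8662815: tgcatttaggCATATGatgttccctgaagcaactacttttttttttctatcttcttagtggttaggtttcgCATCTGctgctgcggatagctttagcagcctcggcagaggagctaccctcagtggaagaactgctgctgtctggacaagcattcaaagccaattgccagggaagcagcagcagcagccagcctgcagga
Itga2, 35310 bases downstream, chr13:114896690-114896889: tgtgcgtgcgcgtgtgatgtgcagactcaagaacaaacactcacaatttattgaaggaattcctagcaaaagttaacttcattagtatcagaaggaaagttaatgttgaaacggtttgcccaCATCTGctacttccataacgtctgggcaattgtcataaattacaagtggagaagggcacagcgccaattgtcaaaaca
Itga2, 76350 bases downstream, chr13:114855650-114855849: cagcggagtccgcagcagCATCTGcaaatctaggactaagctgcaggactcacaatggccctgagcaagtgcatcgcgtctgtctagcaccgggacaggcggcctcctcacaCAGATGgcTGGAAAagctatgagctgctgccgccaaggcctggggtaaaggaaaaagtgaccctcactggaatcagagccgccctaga
In the *Itga5* promoter peak the Nfat motif TTTCCA at 103366848 to 103366853 and the core motif CAGATG at 103366852 to 103366857 share the bases CA. The *Itgb1* peak holds no core and no Nfat motif. The second *Itga2* peak holds CATCTG, and farther along it CAGATG followed, after 2 other bases, by TGGAAA. The *Tns3* and *Itga2* peaks and the more distant *Itga5* peak were chosen after their values were seen.

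Of the 32 genes of at least 1 FPKM, 1 was at least 1.5-fold lower in Scx-/- cells (*Itgbl1*) and 0 were at least 1.5-fold higher. Over all 12123 genes of that level the shares were 0.355% lower and 0.264% higher. Ratios here are log2 of Scx-/- over control after 0.5 FPKM was added to each group mean, which understates the change of low genes. The median over the 32 genes was -0.04, beside -0.00036 over all genes, and 26 of the 32 (81.2%) lay within 0.2 of 0, as did 87.1% of all genes. The 6 others were all lower in Scx-/- cells (*Itgbl1*, *Itga2*, *Itga1*, *Itga4*, *Itga11* and *Itga7*), where 5.86% of all genes lay below -0.2 and 6.99% above 0.2. Lower values in Scx-/- cells were found for 21 of the 32 genes (65.6%), beside 50.2% of all genes. Apart from *Itgbl1* the ratios ran from -0.41 (*Itga2*) to 0.16 (*Itgb8*).

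**Figure D1:**
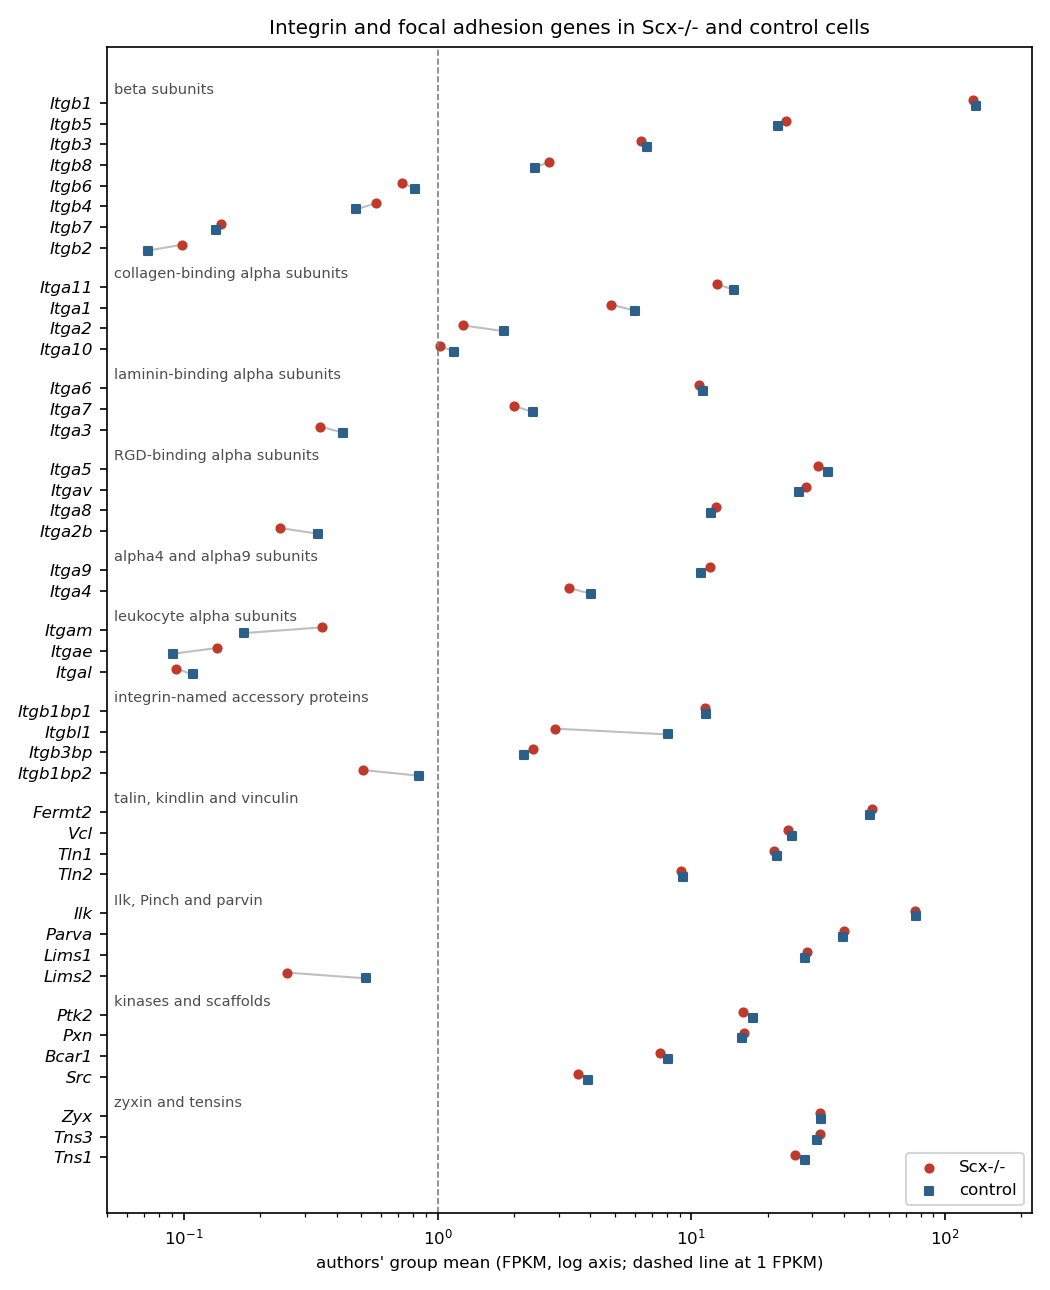
Group means of the 43 genes by role, in Scx-/- cells (circles) and control cells (squares), in FPKM on a log axis, with 1 FPKM dashed and no error bars because only group means were used. The 2 symbols nearly coincide for most genes above 1 FPKM, and *Itgbl1* stands apart with 2.89 FPKM in Scx-/- cells against 8.06 FPKM in control cells.

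*Itgbl1* encodes a protein with EGF-like repeats that resemble the stalk of a beta subunit, without the ligand-binding head or the tail that holds talin, so it is not itself an integrin subunit. Its authors' mean was 2.89 FPKM in Scx-/- cells and 8.06 FPKM in control cells, a control level 2.78 times that of Scx-/- cells and a log2 ratio of -1.33. Only 6 of the 12123 genes, *Itgbl1* included, had a ratio as low. Of the 2562 genes of 4 to 8 FPKM, 6 were at least 1.5-fold lower, and 1 of these, *Itgbl1*, reached -1.33. The gene starts at 123659971 on the plus strand of chromosome 14, and its transcript ends at 123975618. No Scx peak was assigned to it, although its domain spans 560 kb. The nearest peak lay 597 kb upstream of its start site, in an intron, and was assigned to *Tmtc4* and *Nalcn*.

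**Figure D2:**
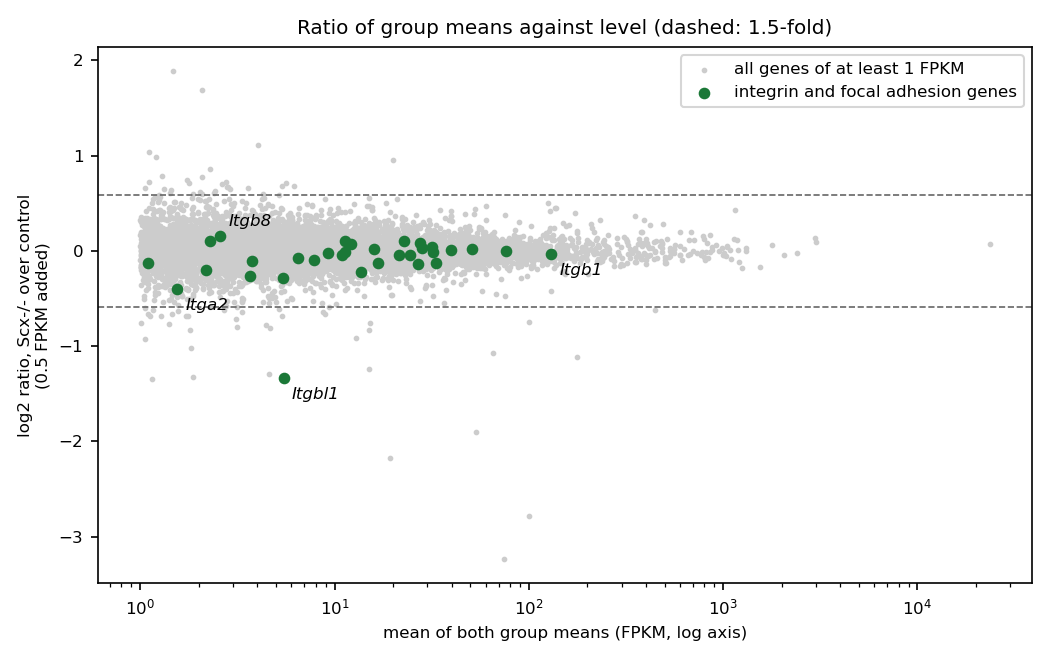
Log2 ratio of Scx-/- over control group means (y axis, 0.5 FPKM added) against the mean of both group means in FPKM (x axis, log scale), for the 32 integrin and focal adhesion genes (green) and all 12123 genes of at least 1 FPKM (grey), with dashed lines at 1.5-fold. *Itgbl1* at -1.33 is the green point beyond the lines, and *Itga2* is next at -0.41.

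Among beta subunits, *Itgb1*, the common partner of the collagen, laminin and fibronectin receptors, was the most abundant, with 129 FPKM in Scx-/- cells and 132 FPKM in control cells (log2 ratio -0.04). It ranked 293rd by level of the 15671 genes and made up 79.0% of the summed beta subunit FPKM in Scx-/- cells and 80.3% in control cells. The beta subunits that pair with the alpha subunit of *Itgav* followed. *Itgb5*, a vitronectin receptor subunit, had 23.6 FPKM in Scx-/- cells and 21.9 FPKM in control cells (log2 ratio 0.11). *Itgb3* had 6.33 and 6.71 FPKM in Scx-/- and control cells (-0.08). *Itgb8*, whose receptor activates latent TGF-beta, had 2.74 and 2.41 FPKM in Scx-/- and control cells (0.16, the highest ratio of the 32 genes). The order *Itgb1*, *Itgb5*, *Itgb3*, *Itgb8* was the same in both groups, and the summed level of all 8 beta subunits was 163 FPKM in Scx-/- cells and 165 FPKM in control cells.

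Each of the 4 collagen-binding alpha subunits was lower in Scx-/- cells, none by 1.5-fold. *Itga11*, the most abundant of them and a receptor for fibrillar collagen on mesenchymal cells, had 12.6 FPKM in Scx-/- cells and 14.8 FPKM in control cells (log2 ratio -0.23). *Itga1* had 4.84 and 5.99 FPKM in Scx-/- and control cells (-0.28). *Itga2* had 1.26 and 1.83 FPKM (-0.41), and *Itga10* had 1.03 and 1.17 FPKM (-0.13) in Scx-/- and control cells. Summed over the 4 genes, the level was 19.7 FPKM in Scx-/- cells and 23.8 FPKM in control cells, a log2 ratio of -0.27 with nothing added. *Itga2* and *Itga10* lie close to the level filter, where the added 0.5 FPKM bears most on the ratio.

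The other alpha subunits went both ways. *Itga5*, the fibronectin receptor subunit, had 31.6 FPKM in Scx-/- cells and 34.6 FPKM in control cells (-0.13). *Itgav*, which binds the RGD sequence in vitronectin, fibronectin and other ligands, had 28.2 and 26.7 FPKM in Scx-/- and control cells (0.08). *Itga8*, whose main ligand is nephronectin, had 12.5 FPKM in Scx-/- cells and 11.9 FPKM in control cells (0.07). These 3 genes held most of the summed alpha subunit level, which was 121 FPKM in Scx-/- cells and 127 FPKM in control cells.

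*Itga9*, a receptor subunit for tenascin-C, had 11.8 and 10.9 FPKM in Scx-/- and control cells (0.10). Its relative *Itga4*, which binds VCAM1 and fibronectin, had 3.29 FPKM in Scx-/- cells and 4.03 FPKM in control cells (-0.26). Of the laminin receptor subunits, *Itga6* had 10.8 and 11.1 FPKM in Scx-/- and control cells (-0.05). *Itga7*, a laminin receptor subunit known best from skeletal muscle, had 2.00 FPKM in Scx-/- cells and 2.37 FPKM in control cells (-0.20). The 6 skeletal muscle markers examined summed to 439 FPKM in Scx-/- cells and 410 FPKM in control cells, and their part in the *Itga7* values was not tested. That sum was carried by *Actc1*, with 323 FPKM in Scx-/- cells and 292 FPKM in control cells, and 2 of the 6 markers were lower in Scx-/- cells. In sorted bulk cells, fewer cells of a type and less RNA per cell cannot be told apart.

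The genes of the Ilk, Pinch and parvin complex that reached 1 FPKM stood at nearly the same level in both groups. *Ilk*, the scaffold of the Ilk, Pinch and parvin complex, had 76.4 FPKM in Scx-/- cells and 76.5 FPKM in control cells (-0.0019). *Parva* had 39.9 and 39.7 FPKM (0.01), and *Lims1*, which encodes Pinch, had 28.6 and 28.0 FPKM (0.03) in Scx-/- and control cells. Summed with *Lims2*, the complex stood at 145 FPKM in both groups.

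*Fermt2*, the kindlin of mesenchymal cells, had 51.5 FPKM in Scx-/- cells and 50.7 FPKM in control cells (0.02). *Vcl* had 24.1 and 24.9 FPKM (-0.05), *Tln1* had 21.2 and 21.8 FPKM (-0.04) and *Tln2* had 9.15 and 9.29 FPKM (-0.02) in Scx-/- and control cells. All 4 of these talin, kindlin and vinculin genes thus lay within 0.05 of 0.

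Among the signalling proteins, *Pxn* (paxillin) had 16.1 FPKM in Scx-/- cells and 15.8 FPKM in control cells (0.02). *Ptk2*, which encodes focal adhesion kinase, had 16.0 and 17.5 FPKM (-0.13), *Bcar1* had 7.53 and 8.11 FPKM (-0.10) and *Src* had 3.58 and 3.91 FPKM (-0.11) in Scx-/- and control cells. These 3 were lower in Scx-/- cells, within 0.2 of 0. *Zyx*, a sensor of tension on stress fibres, had 32.0 FPKM in Scx-/- cells and 32.3 FPKM in control cells (-0.01). *Tns3* had 32.1 and 31.2 FPKM (0.04), and *Tns1*, the tensin of fibrillar adhesions, had 25.5 and 28.0 FPKM (-0.13), in Scx-/- and control cells.

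Of the other genes named after a beta subunit, *Itgb1bp1*, whose product binds the tail of the *Itgb1* subunit and competes with talin, had 11.3 FPKM in Scx-/- cells and 11.4 FPKM in control cells (-0.01). *Itgb3bp*, which also encodes a centromere protein, had 2.37 and 2.18 FPKM in Scx-/- and control cells (0.10). *Itgb1bp2*, which encodes the muscle protein melusin, was below the filter with 0.506 FPKM in Scx-/- cells and 0.847 FPKM in control cells. It is the only one of the 43 genes on the X chromosome, and *Xist*, which is transcribed from an X chromosome of female cells, averaged 24.9 FPKM in Scx-/- cells and 175 FPKM in control cells. Embryo sex and genotype cannot be told apart in these group means, for *Itgb1bp2* or for any other gene here.

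The 11 genes below 1 FPKM had group means of 0.0723 to 0.847 FPKM and were not read for direction. They include the subunits of leukocytes (*Itgal*, *Itgam*, *Itgae*, *Itgb2* and *Itgb7*), of platelets (*Itga2b*) and of epithelia (*Itga3*, *Itgb4* and *Itgb6*), as well as *Itgb1bp2* and *Lims2*. Markers of those cells were present at low levels. The 8 leukocyte and macrophage markers summed to 21.2 FPKM in Scx-/- cells and 18.9 FPKM in control cells, and of them *Lyz2* (lysozyme) was past 1.5-fold, with 3.60 FPKM in Scx-/- cells and 2.07 FPKM in control cells. The 3 listed platelet markers summed to 7.22 FPKM in Scx-/- cells and 7.97 FPKM in control cells, and the 6 epithelial markers to 27.7 and 23.1 FPKM in Scx-/- and control cells. Their part in the levels of the 11 genes was not tested.

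As a check of the labels, *Scx* averaged 41.9 FPKM in Scx-/- cells and 88.6 FPKM in control cells. The allele leaves exon sequence outside the coding part in place, so the check is partial. With a probe for the coding sequence, the paper found no *Scx* mRNA in Scx-/- embryos. The source of the *Scx* level in Scx-/- cells was not tested. Of 8 tendon markers, all of at least 1 FPKM, 5 were at least 1.5-fold lower in Scx-/- cells, with log2 ratios from -3.24 to -0.16 over the list. Over all genes of that level the share was 0.355%. *Scx* is itself 1 of the 8 and of the 5. The paper reports *Tnmd*, *Mkx*, *Fmod*, *Kera*, *Thbs4* and *Htra3* as lower in these same samples, so the list is no independent check. Cartilage markers summed to 91.4 FPKM in Scx-/- cells and 114 FPKM in control cells. *Col2a1*, with 57.1 FPKM in Scx-/- cells and 78.3 FPKM in control cells (-0.45), carried nearly all of that difference. *Acan* was lower as well, with 3.74 FPKM in Scx-/- cells and 5.47 FPKM in control cells (-0.49). These were the 2 lower ones of the 5 cartilage markers of at least 1 FPKM, whose median log2 ratio was 0.01. Red cell markers summed to 222 FPKM in Scx-/- cells and 164 FPKM in control cells. For endothelium the sums were 28.0 FPKM in Scx-/- cells and 28.1 FPKM in control cells, and for Schwann cells 3.59 and 3.00 FPKM in Scx-/- and control cells.

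Further adhesion genes were read from lists. Of 45 integrin ligands, 43 passed the filter, 0 were at least 1.5-fold lower in Scx-/- cells and 1 was higher, with a median log2 ratio of 0.03. That gene was *Ibsp*, bone sialoprotein, an RGD protein of mineralizing matrix, with 2.35 FPKM in Scx-/- cells and 1.23 FPKM in control cells (0.72). These values lie near the level filter of 1 FPKM. Over all genes that passed it the shares past 1.5-fold were 0.355% lower and 0.264% higher. Of 68 other adhesome genes, 67 were listed and 62 passed the filter, 0 were past 1.5-fold in either direction, and the median was -0.02. The most abundant of them were *Cd81*, a tetraspanin, with 433 FPKM in Scx-/- cells and 423 FPKM in control cells, and *Rac1*, a small GTPase of the actin cytoskeleton, with 244 and 243 FPKM in Scx-/- and control cells. Over the ligands the log2 ratios ran from -0.47 to 0.72, and over the adhesome genes from -0.44 to 0.20. The paper lists some of the ligands among its significantly changed genes with Scx peaks. Of these, *Col11a1* (-0.47), *Thbs4* (-0.42) and *Cyr61* (-0.40) were lower in Scx-/- cells. *Nid2* (0.32) and *Postn* (0.43) were higher, *Postn* with 1328 FPKM in Scx-/- cells and 986 FPKM in control cells. None of these was past 1.5-fold, and each had at least 1 assigned Scx peak.

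Chosen after their values were seen, 4 of the ligands of the receptors above were set beside them, and their other ligands were left out. *Fn1*, the ligand of the *Itga5* receptor, had 216 FPKM in Scx-/- cells and 232 FPKM in control cells (-0.10). *Npnt*, nephronectin, had 13.0 and 9.69 FPKM in Scx-/- and control cells (0.41). *Tnc*, tenascin-C, had 49.2 FPKM in Scx-/- cells and 45.0 FPKM in control cells (0.13). *Col1a1*, the main fibrillar collagen chain of tendon, had 1178 and 1333 FPKM in Scx-/- and control cells (-0.18). None of these 4 was past 1.5-fold.

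Scx peaks were assigned to genes by the rule of the study's methods, in which each start site has a basal domain of 5 kb upstream and 1 kb downstream that extends on each side to the next gene's basal domain, by at most 1000 kb. By this rule 27 of the 43 genes (62.8%) had at least 1 of the 12097 peaks, beside 44.3% of all genes of the table with a start site. Of the 32 genes of at least 1 FPKM, 24 (75.0%) had a peak, beside 47.0% of all genes of that level. A peak centred within 5 kb of the start site was found at 12 of the 32 genes (37.5%), beside 24.8% of all. The domains of the 32 genes were longer, with a median of 237 kb beside 100.2 kb, and a longer domain catches more peaks. Per megabase of domain the 32 genes had 9.17 peaks and all genes of that level 5.93. None of these shares was tested.

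In all, 103 peaks were assigned to the 27 genes, none of them to more than 1 of the 43 genes. By centre, 50 lay in introns (48.5%, beside 37.0% of all peaks), 33 between genes (32.0%, beside 33.5%) and 12 in promoters, from 1000 bases upstream to 100 bases downstream of any transcript start (11.7%, beside 22.8%). The 2 in coding exons and 6 in other exons made up the rest. Inside the transcript of the gene itself lay 46 (44.7%), beside 29.4% of all pairs of gene and peak. The rule gave 26 of the 103 peaks to the adhesion gene alone and the others to a neighbour as well. The median distance to the start site was 71.9 kb, beside 90.0 kb for all pairs.

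**Figure D3:**
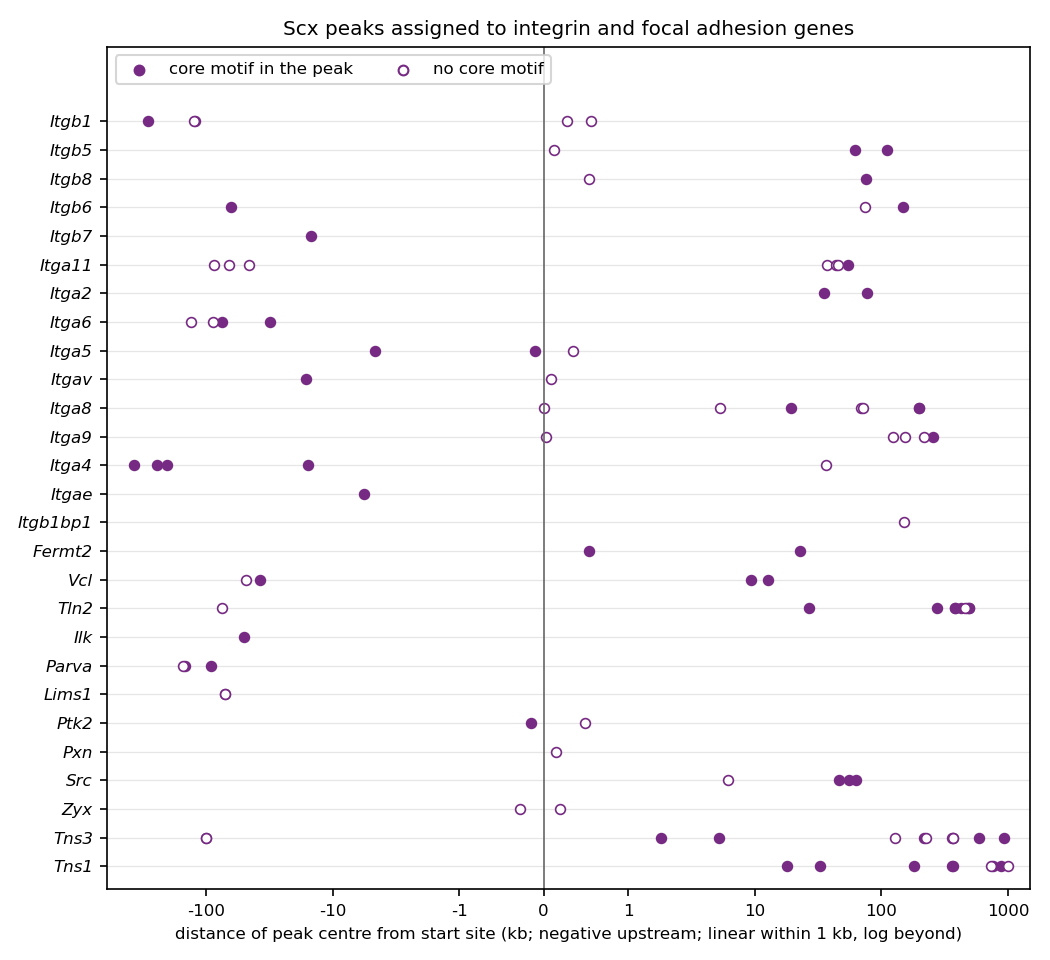
Distance of each of the 103 assigned peak centres from the start site of its gene in kb (negative upstream, linear within 1 kb and log beyond), for the 27 genes with a peak, filled where the peak holds a core motif. Most of the 15 symbols within 1 kb are open, and symbols of close peaks overlap.

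Near their start sites, *Itga5* had 3 peaks, 105 and 4634 bases upstream and 351 bases downstream of it. *Itgb1* had 2, at 274 and 564 bases downstream, *Ptk2* had 2, at 152 bases upstream and 488 bases downstream, and *Zyx* had 2, at 279 bases upstream and 197 bases downstream. A single peak lay 90 bases downstream of the start of *Itgav*, 118 bases of *Itgb5*, 535 bases of *Itgb8*, 3 bases of *Itga8* and 28 bases of *Itga9*. Likewise *Pxn* had 1 at 146 bases, *Fermt2* 1 at 542 bases and *Tns3* 1 at 1819 bases downstream. The 4 integrin genes of highest level (*Itgb1*, *Itga5*, *Itgav* and *Itgb5*) were all among these 12. Of the focal adhesion genes above *Itga5* in level, *Fermt2* was among them, and *Ilk* and *Parva* were not. The share over all genes of like level was not computed.

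*Tns3* had the most peaks, 12, from 1.82 kb to 936 kb from its start, 5 of them inside the gene. Of the 12, 2 were also assigned to *Igfbp3*, and those upstream of the start to *Pkd1l1*. *Tln2* had 10, from 26.9 to 493 kb, and 9 of these were also assigned to *Tpm1*, a tropomyosin gene. *Tns1* had 9, from 18.1 to 998 kb downstream. *Itga11* had 7, from 37.3 to 86.7 kb, with 4 in its introns, and *Itga8* had 7, from 0.003 to 199 kb. Among the 5 peaks of *Itgb1*, the 3 distant ones, 123 to 285 kb upstream, were also assigned to *Nrp1*. *Itga9* had 5, from 0.028 to 256 kb, all inside the gene, and *Itga4* had 5, from 15.6 to 373 kb. Of the genes with 4 peaks, those of *Itga6* lay 31.1 to 131 kb upstream and were shared with *Dlx2*, those of *Src* lay 6.18 to 62.9 kb downstream and were shared with *Nnat*, and those of *Vcl* lay 9.31 to 48.0 kb away. *Itga2* had 2 peaks in its introns, shown above, and its neighbour *Itga1* had none. Shared as well were all peaks of *Itga11* (*Coro2b* or *Fem1b*), *Itga4* (*Ube2e3* or *Cerkl*), *Vcl* (*Plau* or *Ap3m1*) and *Itga2* (*Mocs2*). So were the peaks more than 5 kb from the start of *Itga8* (*Ankrd16*) and of *Itga9* (*Ctdspl*). Those 182 kb or farther from the start of *Tns1* were shared with *Tnp1*.

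The number of peaks and the ratio can be set side by side. The 8 genes with 5 or more peaks had log2 ratios from -0.26 (*Itga4*) to 0.10 (*Itga9*), with a median of -0.03. The 24 genes with a peak had a median of -0.01, and 14 of them were lower in Scx-/- cells, beside 51.4% of all genes of that level with a peak. Those without one (*Itgbl1*, *Itga1*, *Itga7*, *Itga10*, *Itgb3*, *Itgb3bp*, *Tln1* and *Bcar1*) had a median of -0.11, and 7 of the 8 were lower, beside 49.7% of all genes without one. Over all genes of that level the medians were -0.0037 with a peak and 0.0016 without. With 8 genes on one side and no test, nothing is read from this split. Peaks were mapped at E13.5 in whole forelimbs and expression at E15.5 in sorted cells, so binding at the stage and in the cells of the RNA-seq was not measured.

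**Figure D4:**
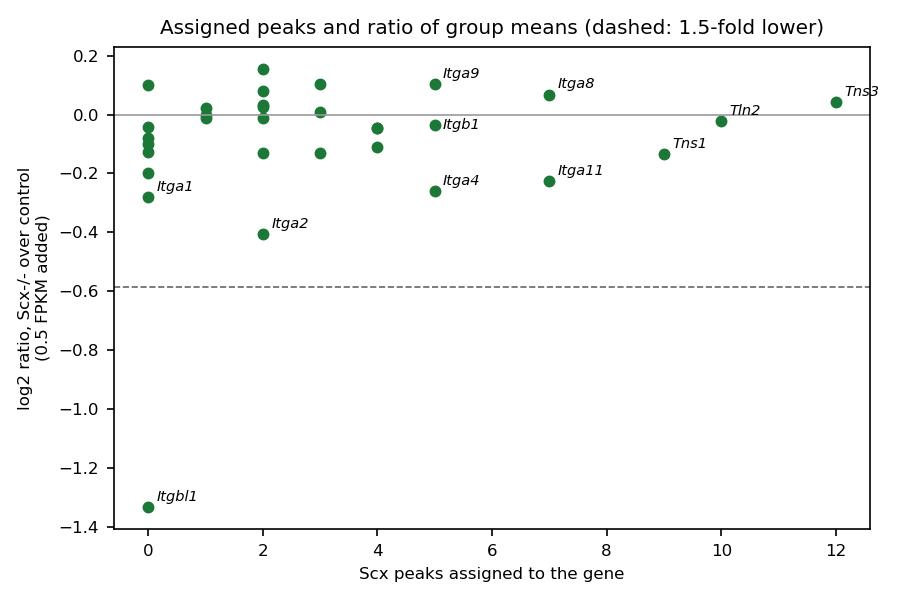
Log2 ratio of Scx-/- over control group means (y axis, 0.5 FPKM added) against the number of assigned Scx peaks (x axis) for the 32 genes of at least 1 FPKM. *Itgbl1*, with 0 peaks, is the point below the dashed 1.5-fold line, and *Tns3*, with 12 peaks, lies at 0.04.

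A core motif on either strand was present in 61 of the 103 peaks (59.2%), beside 60.3% of all 12097 peaks. In windows of the same 200 bases placed 2000 bases to each side of the peaks, the share was 20.9% of 206 windows, beside 26.6% for the windows of all peaks. CAGATG or its reverse complement CATCTG was present in 38 peaks (36.9%, beside 38.9% of all peaks), the palindrome CAGCTG in 21 (20.4%, beside 28.0%) and the palindrome CATATG in 11 (10.7%, beside 7.18%). The Nfat motif was present in 33 (32.0%, beside 31.5%), and 21 peaks held both kinds. In the windows beside the peaks it was present in 17.0%.

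The core motif was rarer next to start sites. Of the 15 peaks within 1 kb of one of the 43 genes' start sites, 3 held a core motif (20.0%), against 58 of the 88 farther ones (65.9%). Over all assigned peaks the shares were 28.2% of 3021 within 1 kb and 71.1% of 8994 beyond it. Base composition differed with distance too, with a mean G+C content of 70.3% in the 15 peaks and 48.6% in the 88, beside 70.9% and 47.8% for all peaks, and its part in the motif shares was not tested. The Nfat motif was present in 1 of the 15 peaks and in 32 of the 88. The 3 peaks with a core motif were the *Itga5* promoter peak shown above and those of *Fermt2* and *Ptk2*, of which 30 bases around the motif are shown because the full intervals run into exons.
Fermt2, chr14:45529539-45529568: ccgcgtagcagcCATCTGgcatccttatcc
Ptk2, chr15:73423313-73423342: taaagtgtatccCAGCTGtgcgggcgtggc
*Itga5*, *Fermt2* and *Ptk2* are all on the minus strand, and the sequences are given on the plus strand. The intronic *Tns3* peak holds a CATATG and a CATCTG, and the more distant *Itga5* peak a CAGATG and a CATCTG 6 bases apart. Of the 2 *Itgb1* peaks near the start site, the 2 *Zyx* peaks and those of *Itgav*, *Itgb5*, *Itgb8*, *Itga8*, *Itga9* and *Pxn*, none held a core motif. A match to a motif is a match of letters and does not show a bound site.

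**Figure D5:**
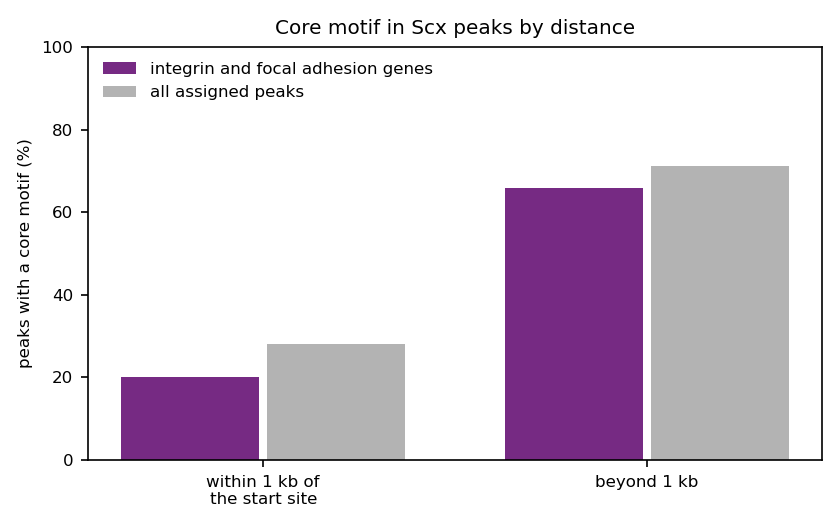
Percentage of Scx peaks with a core motif, within 1 kb of a start site and beyond it, for the peaks of the integrin and focal adhesion genes (purple, 15 and 88 peaks) and for all assigned peaks (grey, 3021 and 8994 peaks). The share was 20.0% near and 65.9% away from the start sites of the adhesion genes, beside 28.2% and 71.1% for all peaks.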

How the data were processed

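The members and gene lists were chosen with earlier results of these data known. For RNA-seq, the authors aligned reads to mm10 with STAR, counted them with featureCounts and discarded genes of chromosome Y, and the deposited table gives their mean FPKM of each group. They also applied RUVseq to account for embryo sex, and no source used here says whether the group means carry that adjustment. For the gene annotation behind the counts, no source used here gives a release. The table also holds 4 columns of the authors' own comparison from DESeq2 (log2 fold change, p-value, FDR and status), which were not used. For ChIP-seq, the authors aligned reads to mm10 (STAR 2.7.4), brought libraries to equal depth, called peaks per ChIP sample against input (HOMER 4.11) and merged them, and kept those passing an edgeR test; the deposited table gives positions of 200 bases each, and no fold or p-value, so single peaks carry no measure of error here.

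Genes were kept at a mean of both group means of at least 1 FPKM, and log2 ratios were taken after adding 0.5 FPKM. The deposited values hold no single samples, so p-values, intervals and leave-one-out values were not computed. Start sites were taken from GENCODE M21, 1 per protein-coding gene, and 461 peaks overlap the next one. Under the naming rule, members were described one by one when they passed the filter, genes of other lists were named by the fold of 1.5 or by level, and peaks when within 5 kb of a start site or, for members with more than 3 peaks, as the nearest and farthest. Outside the rule, and chosen after their values were seen, are the values of *Itgb1bp2*, the names of the other members below the filter, the *Itga2* peaks, *Fn1*, *Npnt*, *Tnc*, *Col1a1*, *Col2a1* and *Actc1*. So are *Acan*, *Col11a1*, *Thbs4*, *Cyr61*, *Postn* and *Nid2*, and the names of the tendon markers. *Xist* and *Scx* were given as checks. Sequences were limited to intervals that touch no exon, or 30 bases. The assignment of peaks, motif search and counting were tested on simulated data. Python 3.11.15, pandas 2.3.3, numpy 2.4.6, samtools 1.23.1 and matplotlib 3.10.9 were used.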

Additional observations from a re-analysis of the deposited data

How the results depend on the processing

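*Itgbl1* was the 1 gene past 1.5-fold under pseudocounts of 0.1 and 1 FPKM, with no filter on level, with a filter at 5 FPKM, after centring on the median of all genes and at a fold of 2. At the lowest fold tried the count was 2, with *Itga2* added. The median log2 ratio of the members was -0.022 with a filter at 5 FPKM, which leaves 25 genes, and differed from -0.04 by less than 0.01 under the pseudocounts, centring and no filter. Of 96 recomputed single-gene ratios 3 moved by more than 0.1 and 0 changed sign, those of *Itgbl1* to -1.45 and -1.22 and that of *Itga2* to -0.51. A peak was assigned to 26 genes with an extension of at most 100 kb, to 23 by the single nearest start site and to 12 within 5 kb of it, which leaves out every distant peak by construction. These 12 were 37.5% of the genes of at least 1 FPKM, beside 24.8% of all genes of that level. Shares over all genes were not computed for the 100 kb and single nearest rules. Those counts thus do not show whether the excess over all genes holds. Merging overlapping peaks left 100 of the 103. The share with a core motif was 50.5% in the central 100 bases, beside 47.4% of all peaks. Any E-box, a wider motif, was held by 74.8% of the members' peaks, beside 78.4% of all peaks and 62.6% of the windows next to the members' peaks. No paired analysis was possible because only group means were used, and no replicate could be left out for the same reason. Without single samples, a difference between groups within the spread of embryos cannot be told from a larger one.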
